A study of Canis lupus familiaris with 6 samples.

Results

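The genes described here are 10 genes of varied function that respond to the hypoxia-inducible factors (HIF): NDRG1, ANKRD37, FAM162A, TMEM45A, PPFIA4, FUT11, ANKZF1, AK4, RIMKLA and WSB1. They were matched by gene symbol, and 9 of the 10 were found among the 29822 gene models of the files. AK4 matched no symbol and was not analysed here. The cells were CMM10, a line grown from a canine malignant melanoma, and RNA sequencing gave 3 libraries of cells kept under hypoxia and 3 libraries of cells kept under normoxia. Both groups are the same line, and the labels give no genotype, oxygen level or time under hypoxia. Nothing in the labels says whether replicates were separate cultures, so the p-values measure only the spread between these libraries, which may be technical.

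When oxygen is plentiful, prolyl hydroxylases mark the HIF alpha subunits, the VHL ubiquitin ligase binds them and the proteasome degrades them. When oxygen is scarce, the alpha subunits persist, pair with ARNT and bind hypoxia response elements near their target genes. The best known targets serve glycolysis, angiogenesis and pH control. The genes below lie outside those pathways: a stress protein, a ubiquitin ligase subunit, mitochondrial and membrane proteins, a glycosyltransferase, a scaffold protein, a neuropeptide synthase and proteins with ankyrin repeats. In tumours, NDRG1, ANKRD37 and FAM162A are familiar entries of transcript signatures of hypoxia.

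All 9 measured genes were higher under hypoxia, by 1.19-fold to 21.3-fold. TMEM45A, ANKRD37 and FAM162A changed most, WSB1 and NDRG1 came next at close to 4-fold, FUT11 and RIMKLA stood near 2-fold, and ANKZF1 and PPFIA4 changed least, by 1.24-fold and 1.19-fold. All 9 passed edgeR's quasi-likelihood test at an adjusted p below 0.05, where 24.5% of the 15397 genes tested were called higher and 49% were called in either direction. Their median log2 fold change was 1.80, against 0.00 over all genes tested. Of the 9, 6 rose by more than 2-fold and passed the test, which 4.81% of all genes tested did. In 8 of the 9 every hypoxia library lay above every normoxia library, a pattern held by 27.8% of all genes tested, and PPFIA4 was the exception. Here and below, levels within a gene are gene reads in CPM (counts per library, scaled to a common total), changes are log2 fold changes of hypoxia over normoxia ± SE, and means are given ± SD of 3 libraries per group.

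**Figure D1:**
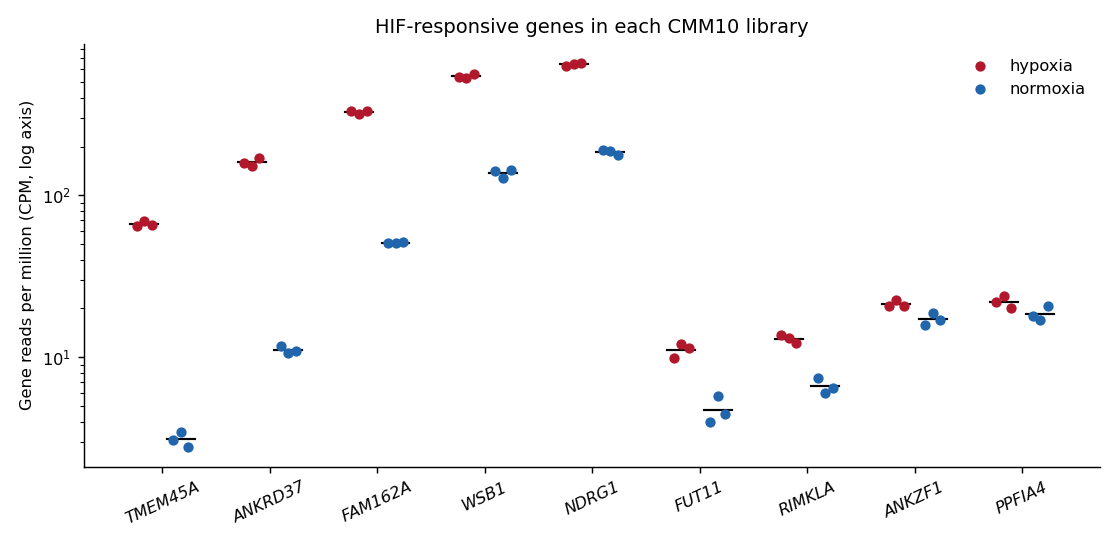
Gene reads in CPM (log axis) of the 9 measured genes in each library, hypoxia in red and normoxia in blue, with black bars at the group means (n = 3 libraries per group). The gap between the groups is widest for TMEM45A (66.4 against 3.1 CPM) and closes to an overlap for PPFIA4 (21.9 against 18.5 CPM).

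Library depth ran from 27272709 to 28804337 gene reads under hypoxia and from 23196647 to 27012866 under normoxia. Between replicates the chi-square over its degrees of freedom was 4.22 to 13.7, so no pair agreed within sampling noise, which does not show whether they were separate cultures. With library size as the only scaling, 38.8% of all calls were higher, against 50.1% with the TMM scaling used here. The melanocytic label was checked against 10 markers with a row in the files, and 3 of them (MLANA, TYR and TYRP1) averaged below 1 CPM. SOX10 was at 58.9 to 69.4 CPM under hypoxia and 46.7 to 52.4 under normoxia, and DCT at 35.8 to 39.1 against 42.6 to 45.4 CPM. SOX10 was called higher (0.40 ± 0.060) and DCT lower (-0.23 ± 0.059). MITF, EDNRB, PMEL, S100B and PAX3 averaged 29.8, 8.46, 7.60, 1.55 and 1.36 CPM and did not pass the test. Of PMEL and S100B reads, 77.7% and 82.1% lay in introns. The summed melanocytic markers ranged from 148.8 to 155.3 CPM under hypoxia and from 139.4 to 148.7 CPM under normoxia. Endothelial markers summed to 6.49 to 7.09 CPM under hypoxia and 5.62 to 6.83 CPM under normoxia. Among markers of other cell types, 2 of 3 endothelial and 3 of 4 leukocyte genes with a row averaged below 1 CPM. PTPRC and CD3E were among these. The model of the B-cell gene CD79A, however, was at 378.2 to 411.2 CPM under hypoxia and 377.8 to 414.3 CPM under normoxia. That model has 15 annotated exons and 5 transcripts over 16101 bases, and which of them gave the reads was not tested. The 3 epithelial markers summed to 366.8 to 375.3 CPM under hypoxia and 303.6 to 326.2 under normoxia, and the 5 fibroblast markers to 305.2 to 317.7 and 252.7 to 273.4 CPM, of which CDH1 and COL1A1 held most. Of the epithelial markers CDH1 was called higher (0.47 ± 0.037), EPCAM lower (-0.15 ± 0.042), and KRT18 did not pass the test (-0.78 ± 0.33). The 1 erythroid marker with a row, ALAS2, was at 7.30 to 9.18 CPM under hypoxia and 9.39 to 11.4 CPM under normoxia. ALAS2 was called lower (-0.31 ± 0.12), and 97.1% of its reads lay in introns. The part of these markers in the results was not tested, and in bulk RNA a change in the number of expressing cells cannot be told apart from a change per cell.

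Among the proteins of mitochondria and metabolism, FAM162A encodes a mitochondrial protein described in human cells as a HIF-1 target that promotes cell death. FAM162A had 329.5, 316.2 and 330.5 CPM in hypoxia replicates 1, 2 and 3, against 50.4, 51.0 and 51.2 CPM in normoxia replicates 1, 2 and 3. The groups stood far apart and the libraries within a group differed little. The change was 2.68 ± 0.040, or 6.40-fold (adjusted p = 1.83e-31 by edgeR, quasi-likelihood, adjusted over all genes after Benjamini and Hochberg). Per exon length, FAM162A was the most abundant of the 9 transcripts in both conditions, at 834.0 ± 4.23 TPM under hypoxia and 130.3 ± 2.02 TPM under normoxia. The gene lies on chromosome 33 (25525411 to 25552256, CanFam3.1), in 5 exons.

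RIMKLA encodes an enzyme that joins N-acetylaspartate to glutamate, giving the neuropeptide N-acetylaspartylglutamate. RIMKLA had 13.8, 13.1 and 12.2 CPM in hypoxia replicates 1, 2 and 3, against 7.43, 6.03 and 6.42 CPM in normoxia replicates 1, 2 and 3. The groups did not overlap, and the change was 0.97 ± 0.11, or 1.96-fold (adjusted p = 1.51e-08 by edgeR). Most of its reads lay in introns, 52.3% ± 2.48 under hypoxia and 64.9% ± 8.75 under normoxia. From exon reads only, the change was 1.40 ± 0.19, and from intron reads only 0.69 ± 0.14, and both passed edgeR's test. It lies on chromosome 15 (856719 to 889138), in 5 exons.

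NDRG1 and WSB1 gave the most reads of the 9 genes. NDRG1 encodes a stress-responsive protein that SGK1 and GSK3 phosphorylate and that has been linked to differentiation and to suppression of metastasis. NDRG1 had 628.3, 647.1 and 653.9 CPM in hypoxia replicates 1, 2 and 3, against 189.7, 187.5 and 176.3 CPM in normoxia replicates 1, 2 and 3. Each hypoxia library was more than 3 times the normoxia libraries, and the change was 1.80 ± 0.036, or 3.48-fold (adjusted p = 2.03e-28 by edgeR). Introns held 64.9% ± 0.51 of its reads under hypoxia and 63.7% ± 1.02 under normoxia. The gene lies on chromosome 13 (29650444 to 29746382), with 29 annotated exons over 95939 bases. The opposite-strand model of CCN4 overlaps its 3′ end, but CCN4 itself averaged 0.22 CPM under hypoxia and 0.049 CPM under normoxia.

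WSB1 encodes a substrate receptor of a Cullin 5 ubiquitin ligase, and VHL has been reported among its substrates in human cells. WSB1 had 537.6, 529.7 and 563.3 CPM in hypoxia replicates 1, 2 and 3, against 141.2, 128.7 and 142.7 CPM in normoxia replicates 1, 2 and 3. No library of one group came near those of the other, and the change was 1.98 ± 0.039, or 3.95-fold (adjusted p = 2.22e-28 by edgeR). Its intron share was 34.2% ± 1.06 under hypoxia and 34.9% ± 1.82 under normoxia. WSB1 lies on chromosome 9 (41870185 to 41886647), in 13 exons.

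Of the genes for membrane, secretory and scaffold proteins, TMEM45A, which encodes a multi-pass membrane protein of little-known function, had the largest change of the 9. TMEM45A had 64.2, 69.2 and 65.8 CPM in hypoxia replicates 1, 2 and 3, against 3.09, 3.45 and 2.77 CPM in normoxia replicates 1, 2 and 3. These normoxia levels rested on 82, 95 and 66 reads, so the gene was low but detected in each. The change was 4.41 ± 0.085, or 21.3-fold (adjusted p = 9.29e-29 by edgeR), and it ranked 13 of 15397 genes by log2 fold change. TMEM45A lies on chromosome 33 (7075752 to 7140982), 18.4 Mb from FAM162A, and was the only other of the 9 on that chromosome.

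FUT11 encodes a fucosyltransferase of the secretory pathway. FUT11 had 9.86, 12.1 and 11.4 CPM in hypoxia replicates 1, 2 and 3, against 3.96, 5.78 and 4.45 CPM in normoxia replicates 1, 2 and 3. The groups did not overlap, though counts were low (278 to 339 reads under hypoxia and 105 to 159 under normoxia). The change was 1.23 ± 0.14, or 2.35-fold (adjusted p = 4.85e-09 by edgeR). The gene lies on chromosome 4 (24209271 to 24212515) in 3 exons.

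PPFIA4 encodes liprin-alpha-4, a scaffold protein of the liprin family, which organises synaptic active zones and cell adhesions. PPFIA4 had 21.9, 23.8 and 20.1 CPM in hypoxia replicates 1, 2 and 3, against 17.9, 16.9 and 20.9 CPM in normoxia replicates 1, 2 and 3. The lowest hypoxia library lay below the highest normoxia library. The change was 0.25 ± 0.085, or 1.19-fold, and passed the test (adjusted p = 0.0175 by edgeR). The call was lost without hypoxia replicate 2 (adjusted p = 0.129), without normoxia replicate 1 (0.0717) or normoxia replicate 2 (0.120), with DESeq2 (0.0597), with scaling by library size alone (0.0887) and from intron reads only (0.141), all by edgeR except the DESeq2 value. From reads that span an exon-exon junction it was 0.41 ± 0.14 (adjusted p = 0.0114 by edgeR). Introns held 57.9% of all PPFIA4 reads. The gene lies on chromosome 7 (120908 to 164964), in 32 annotated exons.

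The ankyrin repeat genes were at opposite ends of the range. ANKRD37 encodes a small protein made largely of ankyrin repeats and is a known HIF-1 target in human cells. ANKRD37 had 158.2, 151.6 and 170.8 CPM in hypoxia replicates 1, 2 and 3, against 11.7, 10.7 and 10.9 CPM in normoxia replicates 1, 2 and 3. The groups were separated by more than 10 times the normoxia level, and the change was 3.85 ± 0.060, or 14.4-fold (adjusted p = 3.87e-31 by edgeR), ranking 22 of 15397. It lies on chromosome 16 (45230096 to 45233418) in 5 exons, with a spliced length of 875 bases.

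ANKZF1 is the relative of yeast Vms1 and, in human cells, frees unfinished chains from stalled ribosomes by cutting their tRNA link. ANKZF1 had 20.6, 22.6 and 20.8 CPM in hypoxia replicates 1, 2 and 3, against 15.8, 18.9 and 16.9 CPM in normoxia replicates 1, 2 and 3. The groups did not overlap, and the lowest hypoxia library stood close above the highest normoxia library. The change was 0.31 ± 0.083, or 1.24-fold (adjusted p = 0.00220 by edgeR), and the call was lost from intron reads only (0.22 ± 0.18, adjusted p = 0.365 by edgeR). The ANKZF1 model, on chromosome 37 (25777713 to 25783887), lies wholly inside the opposite-strand model of the autophagy gene ATG9A and touches that of GLB1L, and 80.0% of its reads were uniquely mapped. The library kit keeps no strand, and reads where these models overlap could come from either. From junction-spanning reads, ANKZF1 changed by 0.39 ± 0.12 (adjusted p = 0.00443 by edgeR), whereas ATG9A, which from all gene reads was called higher (0.28 ± 0.043, adjusted p = 1.51e-06 by edgeR), changed by 0.03 ± 0.097 (adjusted p = 0.802 by edgeR).

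**Figure D2:**
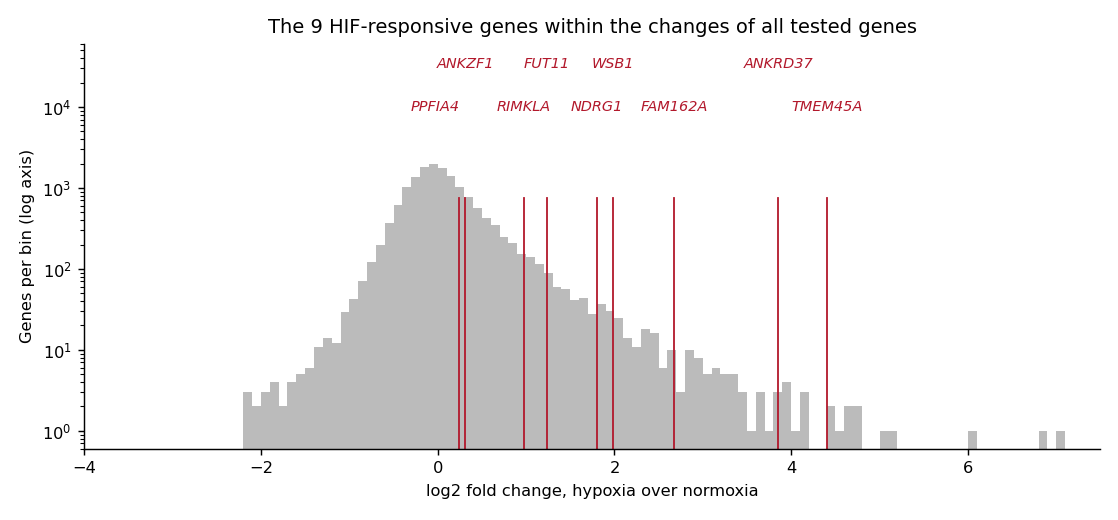
Number of tested genes (log axis) by log2 fold change of hypoxia over normoxia in bins of 0.1, with red lines at the 9 HIF-responsive genes. TMEM45A and ANKRD37 lie in the sparse right tail (ranks 13 and 22 of 15397), and ANKZF1 and PPFIA4 within the bulk of all genes (ranks 3436 and 4073).

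The order of the 9 log2 fold changes was TMEM45A, ANKRD37, FAM162A, WSB1, NDRG1, FUT11, RIMKLA, ANKZF1 and PPFIA4, which ranked 13, 22, 76, 179, 241, 529, 857, 3436 and 4073 among all 15397 genes tested. Adjacent genes in that order differed by more than 2 standard errors of their difference, except for FUT11 against RIMKLA and ANKZF1 against PPFIA4. The order of the levels per exon length was different. Under hypoxia, FAM162A was followed by ANKRD37 (338.3 ± 24.0 TPM), WSB1 (317.3 ± 6.67 TPM), NDRG1 (198.8 ± 8.91 TPM) and TMEM45A (85.3 ± 4.03 TPM), while ANKZF1, FUT11, RIMKLA and PPFIA4 averaged 15.7, 13.6, 8.91 and 5.30 TPM. Under normoxia ANKRD37 came after WSB1 and NDRG1, at 22.7 ± 0.70 TPM, and TMEM45A (4.01 ± 0.69 TPM) lay between PPFIA4 (4.33 ± 0.75 TPM) and RIMKLA (3.45 ± 1.23 TPM), with no separation between these neighbours. The TPM of the 9 genes summed to 1800, 1798 and 1854 in hypoxia replicates 1, 2 and 3, against 330.7, 317.3 and 326.7 in normoxia replicates 1, 2 and 3. FAM162A alone accounted for a difference of 703.7 TPM between the group means, ANKRD37 for 315.6 TPM and WSB1 for 236.4 TPM.

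The files separate exon reads from intron reads, and the change of each gene was compared between the kinds. From exon reads, all 9 genes were called higher (24.4% of the 13458 genes tested from exon reads), and from intron reads 7 of the 9 (18.7% of 13858), all but PPFIA4 and ANKZF1. From junction-spanning reads all 9 were called higher, where 22.6% of 11288 genes were. In a fit of both kinds of read with each library as a block, the exon change differed from the intron change in 0 of the 9 genes by edgeR's test, against 5.67% of the 12265 genes tested. At an unadjusted p below 0.05 by that test, 3 of the 9 differed. The share of all genes at that unadjusted threshold was not counted, and 5.67% is not its reference. RIMKLA had the largest difference, 0.72 ± 0.24 higher in exon reads (adjusted p = 0.0747 by edgeR), and it passed when libraries were scaled by size alone (0.76, adjusted p = 0.0483 by edgeR) and without normoxia replicate 1 (1.06, adjusted p = 0.0133 by edgeR). FUT11 went the other way, with an exon change lower than the intron change by 0.67 ± 0.31 (adjusted p = 0.240 by edgeR), on intron counts of 64 to 70 reads under hypoxia and 12 to 30 under normoxia. ANKRD37 differed by 0.29 ± 0.14 (adjusted p = 0.253 by edgeR). For NDRG1 (-0.09 ± 0.058) and WSB1 (0.03 ± 0.060), which had the most intron reads of the 9, the standard errors were smallest.

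**Figure D3:**
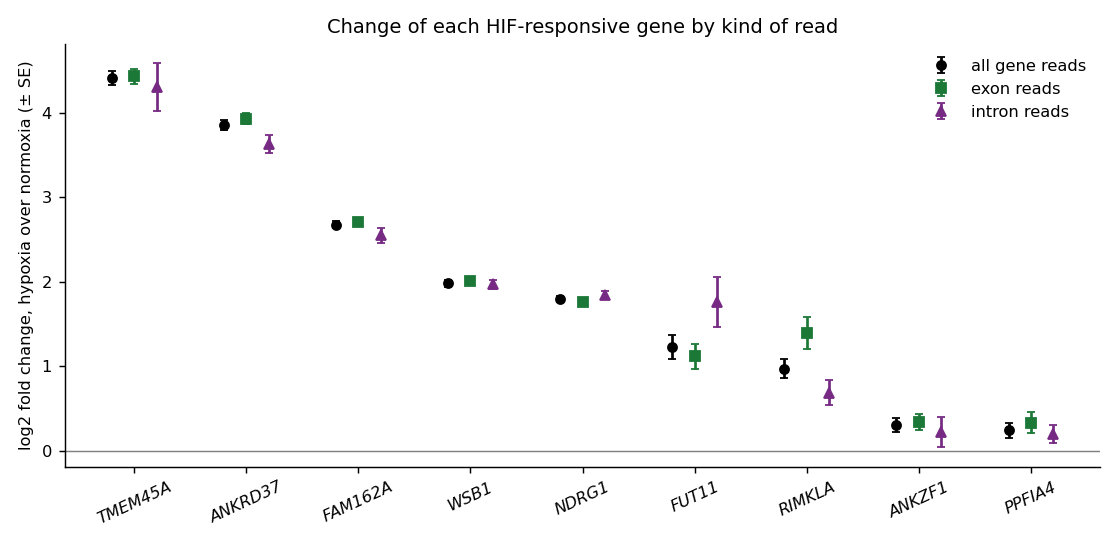
Log2 fold change of hypoxia over normoxia (± SE, edgeR, n = 3 libraries per group) for each of the 9 genes from all gene reads (circles), exon reads (squares) and intron reads (triangles). The 3 estimates nearly coincide for WSB1 and NDRG1 and spread most for FUT11 (1.12 from exons, 1.76 from introns) and RIMKLA (1.40 and 0.69).

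Relatives of these genes were set beside them, by family name. Of 24 relatives, 21 had a row and 19 were tested, of which 4 (21.1%) were called higher and 2 (10.5%) lower, against 24.5% higher and 24.4% lower over all genes tested. Their median was 0.10. In the NDRG family, NDRG4 also rose, to 151.3 ± 2.00 CPM under hypoxia, against 71.9 ± 0.97 CPM under normoxia (1.07 ± 0.041, adjusted p = 1.29e-20 by edgeR), while NDRG2 (0.25 ± 0.13) and NDRG3 (0.10 ± 0.064) did not pass the test.

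Among the liprins, the gene with the largest change was not PPFIA4 but PPFIA3, which was singled out after its values were seen. PPFIA3 had 43, 43 and 54 reads in hypoxia replicates 1, 2 and 3, against 1, 10 and 2 reads in normoxia replicates 1, 2 and 3. It remained at a low level, 1.83 TPM under hypoxia and 0.18 TPM under normoxia, below PPFIA4 in both conditions. Its log2 fold change was 3.32 ± 0.48 (adjusted p = 6.40e-07 by edgeR), and 4.72 without normoxia replicate 2, which held 10 of its 13 normoxia reads. PPFIA3 passed the count filter through its hypoxia libraries, so the p-value and the size of the change are no independent support for a rise. The PPFIA3 model lies wholly inside the same-strand model of SNRNP70. SNRNP70 had 303.5 CPM under hypoxia and 296.9 CPM under normoxia, a change of 0.03 ± 0.099. Which model these reads came from was not tested. PPFIA1 fell (-0.25 ± 0.047), PPFIBP1 rose (0.18 ± 0.036), and PPFIBP2 fell (-0.45 ± 0.15, lost without hypoxia replicate 3, adjusted p = 0.0818 by edgeR, and without normoxia replicate 1, adjusted p = 0.0736 by edgeR).

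None of 5 other fucosyltransferases measured (FUT4, FUT8, FUT10, POFUT1 and POFUT2) passed edgeR's test, with changes between -0.21 and 0.02. Nor did RIMKLB, the relative of RIMKLA (0.19 ± 0.19). Of the adenylate kinases, which interconvert adenine nucleotides, AK1 rose to 105.8 ± 4.48 CPM under hypoxia, against 52.4 ± 2.11 CPM under normoxia (1.01 ± 0.048, adjusted p = 6.67e-18 by edgeR).

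**Figure D4:**
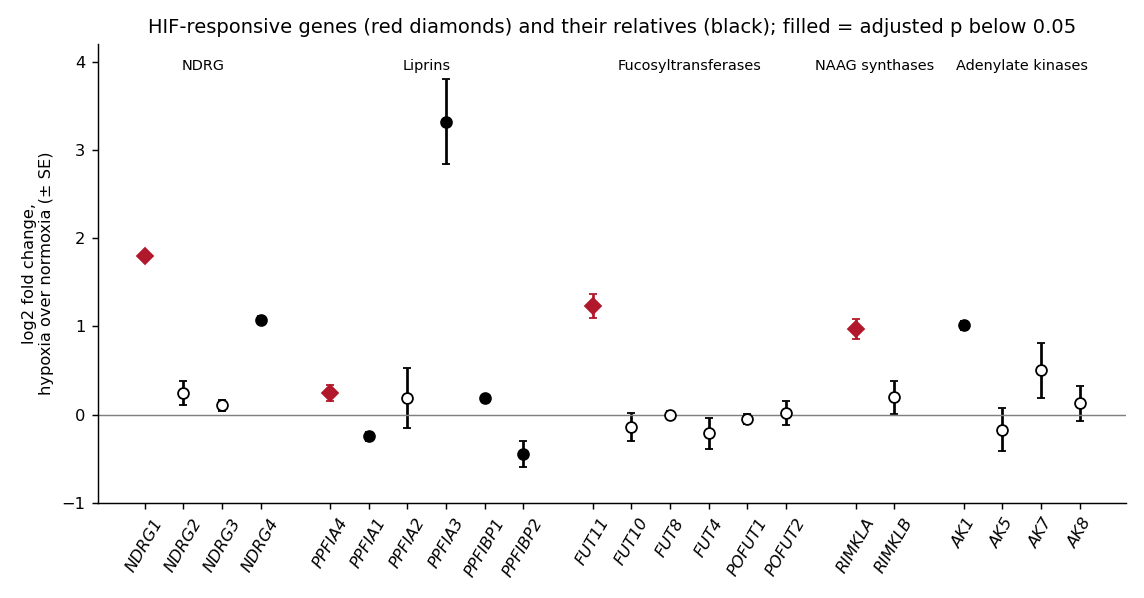
Log2 fold change of hypoxia over normoxia (± SE) of the HIF-responsive genes with measured relatives (red diamonds) and of relatives (black circles), grouped by family, with filled symbols at an adjusted p below 0.05 (edgeR). PPFIA3 at 3.32, NDRG4 at 1.07 and AK1 at 1.01 are the relatives that stand above 1, and the fucosyltransferases other than FUT11 lie near 0. PPFIA3 passed the count filter through its hypoxia libraries.

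Other genes of the HIF pathway were described from a list of 31 targets, 29 of which had a row. All 29 were called higher, with a median of 2.15, from 0.23 ± 0.065 for TPBG to 4.64 ± 0.13 for BNIP3, a receptor for mitophagy. ADM, the vasodilator peptide adrenomedullin, followed BNIP3 at 4.55 ± 0.063. The list was chosen with earlier results of these data known and is not independent evidence of a direction. NDUFA4L2, among the 29, had 27 normoxia reads over 3 libraries, against 503 under hypoxia. It passed the count filter through its hypoxia libraries, so its call is no independent support for a rise. Of the 9 genes, TMEM45A and ANKRD37 were above that median by more than 1.5 log2 units, and ANKZF1 and PPFIA4 were close to TPBG, the lowest of the 29, whose call was lost from junction-spanning and from intron reads (adjusted p = 0.290 and 0.807 by edgeR). In a list of 11 genes of the HIF machinery itself, 3 were called higher (27.3%) and 2 lower (18.2%), with a median of 0.05. Over all genes tested, 24.5% were called higher and 24.4% lower. HIF1A (0.26 ± 0.036) was among the higher calls, but lost the call from exon reads (0.04, adjusted p = 0.351 by edgeR) and from junction-spanning reads (0.07, adjusted p = 0.181 by edgeR), with a change of 2.44 from intron reads. Of the lower calls, ARNT2 was lost from exon reads (adjusted p = 0.0601 by edgeR), and EGLN2 without hypoxia replicate 3, normoxia replicate 1 or normoxia replicate 2 (adjusted p = 0.115, 0.0829 and 0.0875 by edgeR). The number lower was 1 without hypoxia replicate 3 or normoxia replicate 1. The largest change there was that of CITED2 (1.42 ± 0.080), which competes with HIF for its coactivators, followed by that of EPAS1 (0.73 ± 0.096), an alpha subunit.

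The systems in which the 9 genes work showed smaller and mixed changes. Together with the HIF machinery, these lists held 93 tested genes, of which 17 (18.3%) were called higher and 30 (32.3%) lower. The shares over all genes tested were 24.5% and 24.4%. In ribosome quality control, 9 of 13 genes were called lower and 0 higher by edgeR's test, with a median of -0.16, where 24.4% of all genes were called lower. At an unadjusted p below 0.05 the number higher was also 0, and DESeq2 called 0 higher. PTRH2, a peptidyl-tRNA hydrolase, fell to 21.3 ± 0.83 CPM under hypoxia, against 29.5 ± 0.94 CPM under normoxia (-0.47 ± 0.070), and ABCE1, which splits ribosomes, fell to 76.0 ± 1.08 CPM, against 103.2 ± 2.05 CPM (-0.44 ± 0.043). The ATPase VCP, with which ANKZF1 associates, fell by 0.35. ANKZF1 thus moved opposite to the genes of this list that passed the test.

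In the system of Cullin ubiquitin ligases around WSB1, 3 of 15 genes were called higher (20%) and 4 lower (26.7%), against 24.5% and 24.4% of all genes tested. The median was 0.05, and without normoxia replicate 3 the number higher was 1. CUL5, the scaffold that WSB1 uses, fell (-0.31 ± 0.048) and so did the adaptor ELOC (-0.19 ± 0.041), while ELOB (0.04 ± 0.050) and VHL (0.05 ± 0.074) did not pass the test. SPSB2, another substrate receptor, had the largest change of this list (-0.61 ± 0.17), and its model overlaps the end of that of TPI1, which rose by 2.03 ± 0.034. Of 6 genes that phosphorylate or regulate NDRG1, 0 were called higher and 1 lower (2 without normoxia replicate 3), the kinase SGK3 (-0.40 ± 0.055), and SGK1 was at 0.09 ± 0.11. At an unadjusted p below 0.05, 0 of these regulators were higher, and DESeq2 called 0 higher. Their share called lower was 16.7%, against 24.4% of all genes tested.

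In fucosylation, 1 of 12 genes was called higher, the lysosomal fucosidase FUCA1 (0.30 ± 0.040), and 3 lower, of which FPGT, an enzyme of fucose salvage, changed most (-0.25 ± 0.075). The median was -0.05, and the shares were 8.33% higher and 25% lower, against 24.5% and 24.4% of all genes tested. Of 11 partners of the liprins, 6 were called higher (54.5%) and 2 lower (18.2%), with a median of 0.13. The shares over all genes tested were 24.5% and 24.4%. The number higher was 5 with DESeq2 and when any library but hypoxia replicate 2 was left out. Without hypoxia replicate 3 or normoxia replicate 1 the number lower was 1. The synaptic scaffold TANC2 rose to 275.9 ± 23.2 CPM under hypoxia, against 114.2 ± 2.65 CPM under normoxia (1.27 ± 0.048), and the kinesin KIF1A, a motor for synaptic vesicles, rose by 0.80 ± 0.15.

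Of 12 nucleotide kinases, 2 were called higher, AK1 and the UMP-CMP kinase CMPK1 (0.58 ± 0.051), and 4 lower, with a median of -0.02. These were 16.7% and 33.3%, against 24.5% and 24.4% of all genes tested. Among 8 genes of N-acetylaspartate and its peptide, 1 was called higher (12.5%) and 2 lower (25%), with a median of -0.08. The higher call, FOLH1 (0.15 ± 0.052), was lost without normoxia replicate 2 or 3 (adjusted p = 0.111 and 0.0735 by edgeR), which left 0 higher. It was also lost when libraries were scaled by size alone (adjusted p = 0.187 by edgeR), from uniquely mapped reads (0.538) and from intron reads (0.517). SLC17A5, a lysosomal sialic acid carrier that can also move the peptide, fell (-0.29 ± 0.064). ASPA, which cleaves N-acetylaspartate, was at -0.50 ± 0.21 with an adjusted p of 0.0467 by edgeR, and the call was lost without hypoxia replicate 2 or 3 or normoxia replicate 2 or 3 (adjusted p of 0.0945 to 0.136 by edgeR). NAT8L, which makes N-acetylaspartate, did not pass (-0.14 ± 0.13). Of 6 genes for outer membrane channels and death factors of mitochondria, set beside FAM162A, 1 was called higher (16.7%) and 3 lower (50%). Their median was -0.10, and the shares over all genes tested were 24.5% higher and 24.4% lower. The number lower was 2 without hypoxia replicate 2 or normoxia replicate 1, and 4 without normoxia replicate 3. The channel VDAC2 rose to 374.4 ± 4.44 CPM under hypoxia, against 259.3 ± 6.20 CPM under normoxia (0.53 ± 0.034), and cytochrome c, CYCS, fell to 184.8 ± 1.88 CPM, against 264.1 ± 4.64 CPM (-0.52 ± 0.035). From intron reads alone, the calls of PPFIA1, PPFIBP1, PPFIBP2, CYCS, SLC17A5, FPGT and SPSB2 were lost, and those of FPGT and SPSB2 also from junction-spanning reads (adjusted p = 0.460 and 0.292 by edgeR).

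The gene models next to the 9 genes were examined as well. The nearest model on each side and any overlapping one gave 21 neighbours, of which 12 were tested, 4 called higher and 1 lower, with a median of 0.11. Over all genes tested, 24.5% were called higher and 24.4% lower. No tested neighbour changed by more than 1 on the log2 scale. UFSP2, whose model ends 100 bases from that of ANKRD37, had 30.9 ± 0.25 CPM under hypoxia and 28.4 ± 0.34 CPM under normoxia (0.12 ± 0.064, adjusted p = 0.108 by edgeR), beside the 14.4-fold change of ANKRD37, although from intron reads alone UFSP2 was called higher (0.30, adjusted p = 0.0453 by edgeR). SEC24C, 211 bases from FUT11, changed by 0.07 ± 0.044, and CCDC58, divergent from FAM162A at 1348 bases, by 0.13 ± 0.063, and neither passed the test. SEC24C was called higher from intron reads alone (0.40, adjusted p = 0.0249 by edgeR), and CCDC58 from exon reads (0.18, adjusted p = 0.0317 by edgeR), from junction-spanning reads (0.20, adjusted p = 0.0330 by edgeR) and without normoxia replicate 1 (0.17, adjusted p = 0.0499 by edgeR). TMEM183A, 2010 bases from PPFIA4, fell (-0.31 ± 0.040, adjusted p = 5.55e-08 by edgeR). The higher calls were ATG9A and GLB1L, which overlap ANKZF1, ABCB6 next to ANKZF1 (0.14 ± 0.053) and LRP2BP next to ANKRD37 (0.80 ± 0.31, at 1.80 ± 0.59 CPM under hypoxia and 1.03 ± 0.24 CPM under normoxia). The calls of GLB1L, ABCB6 and LRP2BP were each lost without normoxia replicate 2 (adjusted p = 0.219, 0.183 and 0.145 by edgeR) and without hypoxia replicate 1 (0.136, 0.0852 and 0.101), and the ABCB6 call also without hypoxia replicate 2 (0.0896). GLB1L and LRP2BP also lost theirs without hypoxia replicate 3 (0.0742 and 0.186), and GLB1L without normoxia replicate 3 (0.0687). The ATG9A call was lost from exon reads (0.05, adjusted p = 0.550 by edgeR) and from junction-spanning reads (0.03, adjusted p = 0.802 by edgeR). Introns held 75.8% of ATG9A reads, and its model contains that of ANKZF1.

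**Figure D5:**
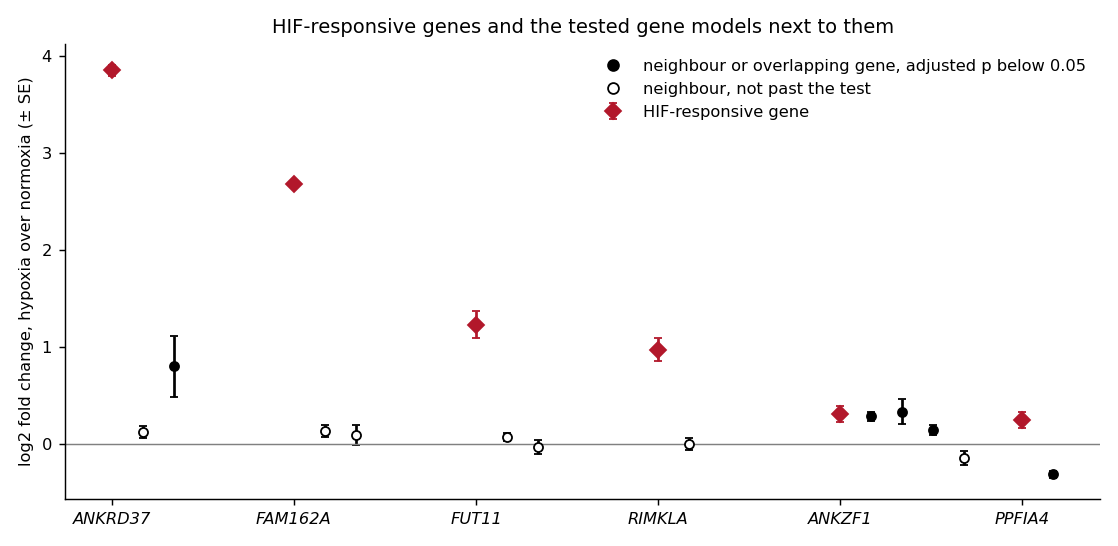
Log2 fold change of hypoxia over normoxia (± SE) of 6 HIF-responsive genes (red diamonds) and, to the right of each, of the tested gene models that flank or overlap it (circles, filled at an adjusted p below 0.05 by edgeR). The flanking genes of ANKRD37, FAM162A, FUT11 and RIMKLA lie far below them, and around ANKZF1 (0.31) the overlapping ATG9A (0.28) and GLB1L (0.33) lie near its change, ABCB6 (0.14) lower and STK16 at -0.14. The ATG9A model contains that of ANKZF1, and its call was lost from exon reads.

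For each of the 9 genes, the most similar profile was sought among 11617 other named genes of at least 1 CPM, by the root mean square distance of centred log2 CPM over the 6 libraries. ANKRD37 was nearest to CA9, the surface carbonic anhydrase (distance 0.095), and TMEM45A to ADM (0.20). NDRG1 was nearest to the helicase DDX41 (0.034), which had 234.5 ± 4.18 CPM under hypoxia and 69.8 ± 2.16 CPM under normoxia (1.75 ± 0.040). FAM162A was nearest to VWA1 (0.072), an extracellular matrix protein with 60.5 ± 2.67 CPM under hypoxia and 9.88 ± 0.29 CPM under normoxia. WSB1 was nearest to OTUD7A (0.058), FUT11 to LGR5 (0.099), RIMKLA to SLC44A4 (0.053), ANKZF1 to HHAT (0.027) and PPFIA4 to EGFL7 (0.039). The 6 libraries form 2 groups, so a likeness in these profiles is largely a likeness in the size of the change.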

How the data were processed

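Poly(A) RNA of 6 CMM10 libraries was sequenced paired-end, per the labels' protocols. The genome build was CanFam3.1, per the submitters' processing notes, with aligner and counting tool not given in the sources used here. Count columns deposited by the authors hold total gene reads and, apart, exon, exon-exon and intron reads, per the file headers. The deposited TPM values have a common sum in each library and were used only for levels between genes. Of 29822 models, 11930 have no symbol and stayed in the tests.

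Total gene reads were filtered by filterByExpr (15397 genes kept), scaled by TMM and compared with edgeR 4.0.16 (glmQLFit and glmQLFTest, robust) in R 4.3.3, without covariates, with Benjamini-Hochberg adjustment over all genes at 0.05. Exon and intron reads were also fitted together with the library as a block. DESeq2 1.42.0 and other alternatives were run, and the fits were tested on simulated data. All 9 measured genes passed the filter. Genes were named by a rule: the 9 genes, the 2 called genes of each list with the largest change and at least 1 CPM, and neighbours that overlap or change by over 1 on the log2 scale. The rule also took the gene with the nearest profile to each of the 9 genes. Any other gene in the text was picked with its values already seen. Members and lists were chosen with earlier results of these data known. One relative is counted but not reported by name here. Figures used matplotlib 3.10.9.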

Additional observations from a re-analysis of the deposited data

How the results depend on the processing

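Gene counts per list were recomputed under 15 alternatives. The number of the 9 genes called higher was 7 to 9 and never gave a gene called lower, and PPFIA4 and ANKZF1 were the genes that lost a call. With intron reads only, 2 relatives were called higher and 0 lower, 11 genes of the partner systems higher and 12 lower, and 2173 genes of the whole table lower. With junction-spanning reads, an alternative added after the data were seen, 2459 genes of the whole table were lower and 2 neighbours higher. DESeq2 called 1 neighbour higher, and library size as the only scaling called 1 higher and 2 lower. That scaling also made 38.8% of all calls higher, against 50.1% with TMM, and called the exon change different from the intron change in 1 gene, RIMKLA. Leaving out a library gave 1 to 5 neighbours higher and 1 to 2 lower, 1 to 2 relatives lower, 13 to 17 partner genes higher, 24 to 30 lower and 0 to 1 genes with unlike exon and intron changes. The cause was not tested. Replicate numbers did not pair the libraries (correlations of -0.09, -0.01 and -0.03 between same-numbered libraries), and with the replicate block 9 of the 9 genes were called higher, with 3769 genes higher and 3793 lower over the whole table. FUT11, RIMKLA and the normoxia level of TMEM45A rest on 66 to 388 reads per library, which limits their precision.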
